A study of Mus musculus with 5 samples.

Results

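Tnfrsf4, Tnfrsf9, Tnfrsf18, Tnfrsf1b and Cd27, which encode costimulatory receptors of the tumor necrosis factor (TNF) receptor family, and Traf1, which encodes an adaptor that binds the tails of several of them, were followed through mouse T cells. These 6 of the 32285 genes in the deposited matrices were taken by symbol, and all 6 were measured. Their levels were read in barcodes with a UMI of Cd3d, Cd3e or Cd3g (Cd3+), split into 3 classes by a pair of transcription factor genes. Foxp3-positive barcodes held at least 1 Foxp3 UMI (466 barcodes), Irf4-positive barcodes held Irf4 and no Foxp3 (2282 barcodes), and the remaining class held neither (20126 barcodes). A UMI is the tag that marks 1 captured RNA molecule, and a barcode stands for 1 droplet, usually 1 cell.

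The study used 10x Genomics 5′ single-cell RNA sequencing on 5 samples, 1 per label. OT-II T cells carry a transgenic T cell receptor, which sees an ovalbumin (OVA) peptide, and were purified from the spleen of a naive mouse. Some Cd3+ barcodes held Trdc, Klrd1, Cd8a or Cd8b1, genes of T cells other than CD4 cells, and the receptor of each barcode was not determined. Cocultures put them overnight with apCAFs (antigen-presenting cancer-associated fibroblasts) taken by sorting from pancreatic tumors, clone sKPC or clone rKPC. The labels name sKPC apCAFs with OVA, rKPC apCAFs with OVA, sKPC apCAFs with the vehicle DMSO, rKPC apCAFs with DMSO, and OT-II cells with neither fibroblasts nor treatment. The counts were deposited as 2 aggregated matrices (G and H). The labels tie 2 samples to G and 3 to H, whereas the barcode suffixes show 3 libraries in G (Ga, Gb, Gc) and 2 in H (Ha, Hb). No source used here ties a suffix to a sample, so the libraries were kept without labels, and no effect of coculture, clone or OVA was computed. Classes were compared inside each library, and cells were not treated as replicates, so there are no p-values. Intervals are 95% and cover counting error only.

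Receptors of this family lie at the T cell surface, where they recruit TRAF adaptors and switch on NF-kB. They thereby feed survival and growth signals to a T cell that has met its antigen. Tnfrsf4 (OX40), Tnfrsf9 (CD137) and Tnfrsf18 (GITR) are induced after activation and are held at higher levels by regulatory T cells, which Foxp3 defines. Tnfrsf1b (TNFR2) is likewise found on regulatory and activated cells, whereas Cd27 is already present on naive T cells. Irf4 is a transcription factor that is induced by the T cell receptor.

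The 5 libraries held 3081 to 6419 Cd3+ barcodes after the filter, with medians of 7928 to 8767.5 UMIs. The Foxp3-positive share was alike, at 1.52% to 2.43%. The Irf4-positive share was 19.98% in Ga and 17.7% in Gc, against 1.20% in Gb, 0.881% in Ha and 0.711% in Hb. Foxp3-positive barcodes carried other genes of regulatory T cells: Ikzf2 was found in 61.7% to 76.6% of them, against 17.4% to 19.9% of the barcodes with neither gene, and Ctla4 in 51.7% to 76.6%, against 9.83% to 15.97%. Levels are in CPM, the UMIs of a gene per 1000000 UMIs of the class. The Irf4-positive class differed between libraries. Its T cell receptor response list (such as Nr4a1, Egr2, Il2ra and Myc) summed to 2825 CPM in Ga and 2683 CPM in Gc, against 456, 171 and 196 CPM in Gb, Ha and Hb. Ikzf2 was found in 43.2%, 29.7% and 57.1% of Irf4-positive barcodes of Gb, Ha and Hb, against 12.1% in Ga and 12.8% in Gc. For Ctla4 the shares were 48.6%, 29.7% and 35.7%, against 18.9% and 22.0%. Whether these included regulatory T cells whose Foxp3 was missed was not tested. In Ha the B cell markers reached 1492 CPM and the erythroid markers 22159 CPM in that class, with 99.7% of the erythroid UMIs in 1 barcode. Barcodes with at least 3 markers of B, erythroid, myeloid or fibroblast cells made up 21.6% of the Irf4-positive class in Ha and 0% to 7.14% of every other class and library. In Gb, 1 barcode of 278399 UMIs carried 36.8% of all UMIs of the Foxp3-positive class. It held 267 UMIs of the 6 fibroblast markers, 1 Foxp3 UMI, and only 6 UMIs of the 6 genes together. Values without the barcodes that carried 3 or more such markers are given beside results that they move. At most 14 barcode sequences were shared by any 2 libraries.

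Tnfrsf9 differed most between the classes among the 6 genes. It reached 504, 48.8, 304, 220 and 89.0 CPM in Foxp3-positive barcodes of Ga, Gb, Gc, Ha and Hb. In Irf4-positive barcodes it reached 169, 25.5, 137, 13.0 and 15.6 CPM in the same libraries, and in barcodes with neither gene 9.24, 2.03, 8.57, 2.87 and 1.84 CPM. The order Foxp3-positive, Irf4-positive, neither held in all 5 libraries. The log2 ratio of Foxp3-positive over neither had a median of 5.60, a 48.3-fold difference, and ran from 4.59 in Gb to 6.25 in Ha. Without the barcodes that carried markers of other cells the value of Gb was 5.52 and the range 5.19 to 6.34. That of Irf4-positive over neither had a median of 3.71 and ran from 2.29 to 4.19, but it rested on only 9, 6 and 5 UMIs in Gb, Ha and Hb. Its lowest value, in Ha, was 2.89 without the barcodes that carried markers of other cells. Without Foxp3-negative barcodes holding Ikzf2, Gpr83 or Lrrc32 its median fell to 2.96, while that of Tnfrsf4 rose from 2.27 to 2.74. Foxp3-positive over Irf4-positive gave a median of 1.57. In Gb that ratio was 0.88, with an interval that held 0 (-0.14 to 2.18), and it was 1.502 (0.48 to 2.80) without the barcodes that carried markers of other cells. In 1 Foxp3-positive barcode of Ga, 83 UMIs of Tnfrsf9 were counted.

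The promoters of Tnfrsf9, Tnfrsf1b and Cd27 are printed. They set the gene with the widest contrast between classes beside a member with a moderate contrast and a member with a small contrast. Each window is the 250 bases before a RefSeq start site in GRCm38.p6, 5′ to 3′ on the gene's strand, and capitals mark motif matches. All 6 genes had an entry, in 7 windows, since Tnfrsf9 has a pair of start sites. The 3 motifs were looked for on both strands: AP-1 (TGANTCA), NF-kB and an interferon regulatory factor (IRF) pair, GAAANNGAAA.
Tnfrsf9 start site 1, chr4:150919905-150920154, + strand: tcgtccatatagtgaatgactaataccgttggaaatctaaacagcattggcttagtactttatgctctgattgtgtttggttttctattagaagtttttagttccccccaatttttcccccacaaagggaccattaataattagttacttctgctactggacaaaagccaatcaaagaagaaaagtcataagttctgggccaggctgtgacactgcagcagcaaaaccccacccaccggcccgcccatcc
Tnfrsf9 start site 2, chr4:150927749-150927998, + strand: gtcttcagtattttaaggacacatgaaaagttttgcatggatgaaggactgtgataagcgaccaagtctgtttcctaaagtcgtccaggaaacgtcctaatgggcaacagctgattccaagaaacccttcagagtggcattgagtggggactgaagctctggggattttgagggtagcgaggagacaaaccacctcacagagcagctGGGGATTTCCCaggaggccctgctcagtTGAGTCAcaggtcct
Tnfrsf1b, chr4:145246871-145247120, - strand: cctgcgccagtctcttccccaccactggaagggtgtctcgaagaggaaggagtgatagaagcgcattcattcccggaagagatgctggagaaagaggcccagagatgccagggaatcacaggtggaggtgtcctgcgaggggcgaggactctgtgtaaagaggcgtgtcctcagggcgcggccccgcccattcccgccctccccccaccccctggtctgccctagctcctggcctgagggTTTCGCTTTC
Cd27, chr6:125237028-125237277, - strand: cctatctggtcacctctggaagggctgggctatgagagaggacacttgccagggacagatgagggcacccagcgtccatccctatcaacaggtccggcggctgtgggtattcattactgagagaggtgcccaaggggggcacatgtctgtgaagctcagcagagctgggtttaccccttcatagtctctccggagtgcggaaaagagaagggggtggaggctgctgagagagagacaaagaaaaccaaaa
Start site 2 of Tnfrsf9 held overlapping NF-kB matches, GGGGATTTCC and GGGATTTCCC, from 43 to 33 bases before the start, and an AP-1 match, TGAGTCA, from 15 to 9 bases before it. Start site 1 held none of the 3 motifs. Tnfrsf1b held an IRF match on the reverse strand, within the last 10 bases before the start. The windows of Tnfrsf4, Tnfrsf18, Cd27 and Traf1 held no match. Among 32851 promoter windows of the same length, 6.75% held the AP-1 motif, 3.90% the NF-kB motif and 2.98% the IRF pair. A match describes the letters only, and the start site that these cells used was not determined.

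Tnfrsf4 showed the same order of classes, though in Gb the upper pair was level within counting error. Foxp3-positive barcodes held 270, 67.3, 216, 138 and 116 CPM across Ga, Gb, Gc, Ha and Hb. Irf4-positive barcodes held 56.2, 65.1, 59.7, 80.1 and 43.6 CPM, and barcodes with neither gene 12.1, 8.82, 12.4, 12.8 and 9.38 CPM. Every Foxp3-positive and every Irf4-positive value lay above every value of the barcodes with neither. The Irf4-positive values of Gb, Ha and Hb rested on only 23, 37 and 14 UMIs. In Ha, 20 of the 37 lay in 3 barcodes. The median log2 ratio was 3.63 for Foxp3-positive over neither (2.94 to 4.48) and 2.27 for Irf4-positive over neither (2.21 to 2.91). Without barcodes carrying markers of other cells the lowest, Gb, was 3.58 in the Foxp3-positive comparison, and Ha was 3.26 in the Irf4-positive one, against 2.66 with them. The step between Foxp3-positive and Irf4-positive barcodes varied more, from 0.03 in Gb to 2.27 in Ga, with a median of 1.37. The Gb value had an interval of -0.69 to 0.83, and became 0.65 (-0.07 to 1.45) without barcodes carrying markers of other cells. In Hb the interval was above 0 with and without them, at 0.56 to 2.36 and 0.36 to 2.15. In Ha it was 0.26 to 1.35 with them, but -0.20 to 0.90 without them, around 0.32.

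Tnfrsf18 was present in all classes and differed less. It summed to 326, 96.4, 237, 219 and 174 CPM in Foxp3-positive barcodes of Ga, Gb, Gc, Ha and Hb. Irf4-positive barcodes held 130, 73.6, 108, 86.6 and 53.0 CPM, and those with neither gene 53.3, 38.9, 49.0, 51.5 and 47.2 CPM. The Foxp3-positive class was the highest in each library. Its log2 ratio over neither had a median of 2.09 (1.32 to 2.61). Without barcodes carrying markers of other cells the lowest of these, Gb, was 1.94, and the median was 2.26 (1.88 to 2.61). The Irf4-positive class lay 0.95 above neither on the log2 scale in the median, just short of 2-fold. It was past 2-fold in Ga (1.28) and Gc (1.14), and in Hb the interval of 0.21 held 0 (-0.62 to 0.85). Without barcodes carrying markers of other cells the Irf4-positive median was 1.19. Foxp3-positive over Irf4-positive gave a median of 1.32 (0.37 to 1.68), and 1.12 (0.96 to 1.48) without those barcodes, Gb being 0.99 in place of 0.37. Tnfrsf18 (chr4:156026164-156028895, + strand) starts 9551 bases from the end of Tnfrsf4, which lies at chr4:156013843-156016612 on the same strand (GRCm38, GENCODE vM21). Tnfrsf9 (chr4:150914562-150946102, + strand) and Tnfrsf1b (chr4:145213463-145246870, - strand) lie on the same chromosome, while Cd27 (chr6:125232622-125237010, - strand) and Traf1 (chr2:34941750-34961772, - strand) lie elsewhere.

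Tnfrsf1b, the TNF receptor of regulatory and effector cells, reached 114, 70.0, 92.7, 87.1 and 65.9 CPM in Foxp3-positive barcodes of Ga, Gb, Gc, Ha and Hb. Irf4-positive barcodes held 56.0, 105, 54.4, 39.0 and 40.5 CPM, and barcodes with neither gene 27.1, 19.1, 27.5, 16.1 and 18.5 CPM. Both classes lay above neither in every library. The median log2 ratios over neither were 1.88 for the Foxp3-positive class (1.75 to 2.44) and 1.18 for the Irf4-positive class (0.98 to 2.47). The Foxp3-positive and Irf4-positive classes changed places in Gb, where their log2 ratio was -0.59 with an interval that held 0 (-1.21 to 0.06). Without the barcodes that carried markers of other cells that ratio was 0.02 (-0.62 to 0.68), and Foxp3-positive over neither in Gb was 2.67 in place of 1.88. Tnfrsf1b is also a gene of myeloid cells: 39 Cd3-negative barcodes with at least 3 myeloid markers held 259 CPM of it. Myeloid markers summed to 383 CPM in Foxp3-positive barcodes of Gc and to 1032 CPM in Irf4-positive barcodes of Hb. Without barcodes that carried such markers, Tnfrsf1b was 87.3 CPM in the Foxp3-positive class of Gc and 32.3 CPM in the Irf4-positive class of Hb.

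Cd27 was nearly even between Foxp3-positive barcodes and those with neither gene, and lower in the small Irf4-positive classes of Gb, Ha and Hb. It summed to 218, 201, 246, 285 and 303 CPM in Foxp3-positive barcodes, to 251, 184, 236, 152 and 184 CPM in Irf4-positive barcodes and to 233, 241, 233, 257 and 270 CPM in barcodes with neither gene, in the order Ga, Gb, Gc, Ha, Hb. The classes overlapped across libraries. The median log2 ratio over neither was 0.08 for Foxp3-positive barcodes (-0.26 to 0.17) and -0.38 for Irf4-positive barcodes (-0.75 to 0.11). Without barcodes carrying markers of other cells the Foxp3-positive value of Gb turned to 0.37 (0.12 to 0.60), with a median of 0.14 over the libraries (-0.11 to 0.37). The lower Irf4-positive values were those of Gb, Ha and Hb, where the class was small. In Ga and Gc, with over 1000 Irf4-positive barcodes each, the ratios were 0.11 (0.05 to 0.17) and 0.01 (-0.04 to 0.07). In Ha the ratio of -0.75 was taken in the class with 21.6% of barcodes carrying markers of other cells. Cd27 there was 216 CPM without them. Without such barcodes Irf4-positive over neither was -0.41 (-0.81 to -0.07) in Gb and -0.47 (-0.89 to -0.10) in Hb. In Ha it was -0.25 (-0.64 to 0.09). Foxp3-positive over Irf4-positive was then 0.79 (0.36 to 1.24) in Gb, 0.56 (0.17 to 0.98) in Ha and 0.61 (0.17 to 1.08) in Hb. That ratio was -0.21 (-0.38 to -0.05) in Ga and -0.02 (-0.17 to 0.13) in Gc.

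Traf1 differed from Tnfrsf4, Tnfrsf9 and Tnfrsf18 in its order of classes. Foxp3-positive barcodes held 165, 85.8, 187, 144 and 126 CPM across Ga, Gb, Gc, Ha and Hb. Irf4-positive barcodes held 202, 224, 193, 158 and 106 CPM, and barcodes with neither gene 117, 97.9, 113, 124 and 107 CPM. The Irf4-positive class was the highest in 4 libraries and the Foxp3-positive class in Hb. The median log2 ratio over neither was 0.77 for Irf4-positive barcodes (0.01 to 1.20) and 0.25 for Foxp3-positive barcodes (-0.18 to 0.73). The negative end was Gb, which turned to 0.36 (-0.04 to 0.72) without barcodes carrying markers of other cells, and the 5 Foxp3-positive ratios then ran from 0.24 to 0.71. In Ha the Irf4-positive ratio was 0.73 without them and 0.36 with them. In Ga the Foxp3-positive class lay below the Irf4-positive class by a small step, with a log2 ratio of -0.29 (-0.49 to -0.10), while in Gc the interval held 0 (-0.21 to 0.12). The ratio of -1.38 in Gb became -0.77 (-1.29 to -0.27) without barcodes carrying markers of other cells. In Gb, 33 of the 79 Irf4-positive UMIs lay in 8 barcodes with 2 to 3 Irf4 UMIs. Without barcodes carrying such markers the ratio was -0.39 (-0.82 to 0.08) in Ha and 0.04 (-0.56 to 0.69) in Hb. Both intervals held 0. Traf1 was also found in 28 Cd3-negative barcodes with at least 3 B cell markers, at 171 CPM.

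**Figure D1:**
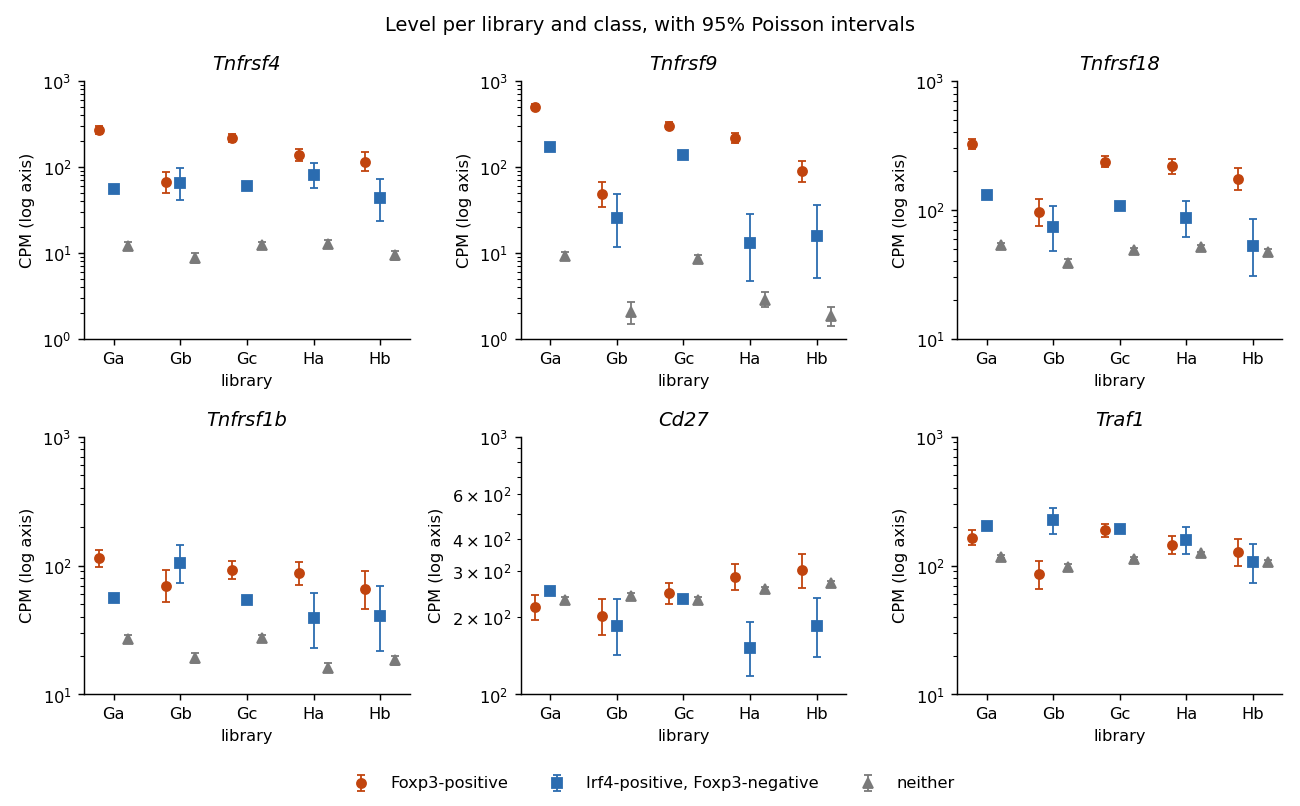
Level of each gene in CPM (log axis) in each library, for Foxp3-positive, Irf4-positive and remaining Cd3+ barcodes, with 95% Poisson intervals. Tnfrsf9 stands at 504 CPM in Foxp3-positive and 9.24 CPM in remaining barcodes of Ga, while the classes of Cd27 lie between 152 and 303 CPM.

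Set against all genes, 4 of the 6 genes were at least 2-fold higher in Foxp3-positive barcodes than in those with neither gene, by the median over the 5 libraries, and none was 2-fold lower. Of 14758 genes with at least 100 UMIs, 11.8% passed that line upwards and 3.46% downwards. In Irf4-positive barcodes 3 of the 6 (Tnfrsf4, Tnfrsf9 and Tnfrsf1b) were at least 2-fold higher than in those with neither, where 11.6% of all genes were and 3.86% were as much lower. Foxp3-positive over Irf4-positive gave 3 of the 6 higher (Tnfrsf4, Tnfrsf9 and Tnfrsf18) and none lower, beside 7.41% and 7.94% of all genes. Many genes past the line had few UMIs: with at least 1000 UMIs, which each of the 6 genes had, 5.26% were higher and 2.30% lower in Foxp3-positive over neither, 4.91% and 3.92% in Irf4-positive over neither, and 4.85% and 2.84% in Foxp3-positive over Irf4-positive. The median of the 6 log2 ratios was 1.99 for Foxp3-positive over neither, against 0.09 over all genes. Tnfrsf18 was also past 2-fold in the Irf4-positive comparison under 8 of the 18 alternatives run, among them leaving out Ha and leaving out Hb, and fell short of it in Foxp3-positive over Irf4-positive (0.85) when thinned to 2000 UMIs.

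**Figure D2:**
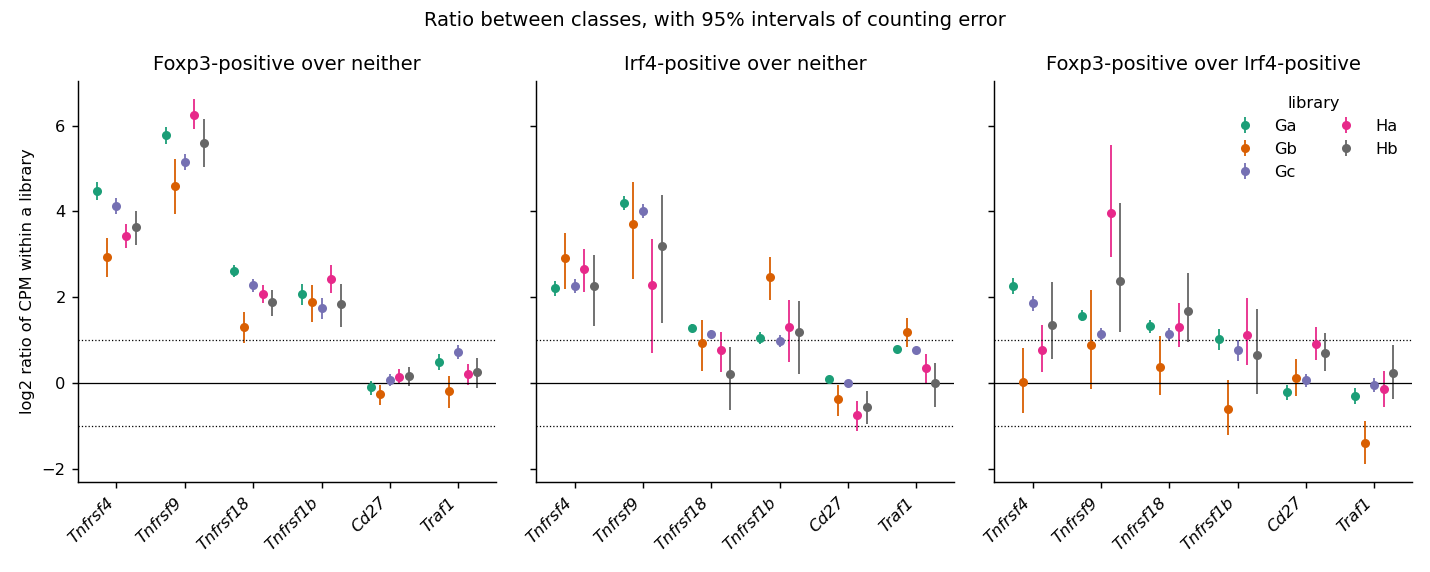
Log2 ratio of CPM between classes inside each library, with 95% intervals of counting error; dotted lines mark 2-fold. In the Foxp3-positive over neither panel all 5 points of Tnfrsf4, Tnfrsf9, Tnfrsf18 and Tnfrsf1b lie above the upper dotted line, and those of Cd27 and Traf1 lie between -0.26 and 0.73.

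At equal depth the shares of barcodes with a UMI followed the levels. Each barcode was thinned to 2000 UMIs, leaving out 910 shallower Cd3+ barcodes. Over all libraries, Tnfrsf9 was then found in 23.2% of Foxp3-positive, 20.1% of Irf4-positive and 0.758% of the remaining barcodes. For Tnfrsf4 the shares were 22.7%, 7.65% and 1.92%. Tnfrsf18 was found in 30.9%, 17.9% and 8.96%, and Tnfrsf1b in 15.4%, 8.91% and 3.71%, of the same classes. Cd27 stayed between 37.0% and 40.5%, and Traf1 was found in 23.2%, 28.7% and 18.7%. These shares pool the libraries, so class and library are not separated in them. Of the Irf4-positive barcodes 1017 came from Ga and 1106 from Gc, against 37, 36 and 27 from Gb, Ha and Hb. Of the Foxp3-positive barcodes 125 came from Ga and 133 from Gc, against 52, 92 and 60 from Gb, Ha and Hb. As a gauge of free RNA, 145 Cd3-negative barcodes with erythroid markers at that depth showed 0% to 1.38% for the 6 genes, and a count of 0 there allows up to 2.07%. Before thinning, the erythroid barcodes had a median of 7830 UMIs. With that many barcodes, the shares of Tnfrsf4 and Tnfrsf9 in barcodes with neither gene could not be set apart from free RNA. By level, the erythroid barcodes held 2.81 CPM of Tnfrsf4 (0.765 to 7.19) and 1.40 CPM of Tnfrsf9 (0.17 to 5.07), where barcodes with neither gene held 8.82 to 12.8 CPM of Tnfrsf4, above that interval in each library. For Tnfrsf9, Ga and Gc lay above the interval, and Gb, Ha and Hb lay within it.

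Per library, the share of Irf4-positive barcodes with Tnfrsf9 was 23.7% in Ga and 18.4% in Gc, and 2.70%, 2.78% and 3.70% in Gb, Ha and Hb, each of the last 3 being 1 barcode. Foxp3-positive barcodes held Tnfrsf9 in 30.4%, 9.62%, 25.6%, 26.1% and 10.0% of cases in Ga, Gb, Gc, Ha and Hb. Ga, Gc and Ha were thus close to each other, and Gb and Hb lower. For Tnfrsf4 in the Foxp3-positive class the 5 shares were 28.8%, 15.4%, 25.6%, 18.5% and 16.7%. The T cell receptor response list in Foxp3-positive barcodes summed to 1161, 111, 1736, 219 and 281 CPM in the same order. Il2ra, which is also a gene of regulatory T cells, made up 583, 31.7, 675, 111 and 194 CPM of these sums. The sum was high in Ga and Gc and low in Ha, whose Tnfrsf9 share was 26.1%. Its part in the levels was not tested.

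Across whole libraries the genes spread differently. Tnfrsf9 in all Cd3+ barcodes was 63.4 CPM in Ga and 46.1 CPM in Gc, against 3.73, 9.17 and 3.42 CPM in Gb, Ha and Hb, a span of 4.21 on the log2 scale. Tnfrsf4 was 30.7 and 29.0 CPM in Ga and Gc, against 11.3, 17.3 and 11.5 CPM in Gb, Ha and Hb, a span of 1.44. The other spans were 0.97 for Tnfrsf18, 0.99 for Tnfrsf1b, 0.49 for Traf1 and 0.21 for Cd27. So 2 of the 6 genes spanned 2-fold or more, where 13.8% of all genes and 4.30% of those with at least 1000 UMIs did. Inside the class with neither gene the span of Tnfrsf9 was 2.32 and that of Tnfrsf4 was 0.54. Only Tnfrsf9 spanned 2-fold there, where 11.3% of all genes and 1.88% of those with at least 1000 UMIs did. With barcodes carrying markers of other cells left out, Tnfrsf1b spanned 1.14 over all Cd3+ barcodes. Matrices G and H were aggregated apart, so matrix and sample cannot be told apart in a span between them.

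The classes carried different parts of each library's total. In Ga, Foxp3-positive barcodes held 24.2% of the Tnfrsf9 UMIs, Irf4-positive barcodes 65.2% and the rest 10.6%. Gc was alike, at 19.6%, 66.4% and 13.9%. In Ha the same classes held 68.2%, 1.80% and 30.0%, although only 2.24% of its Cd3+ barcodes were Foxp3-positive. In Gb they held 38.5%, 9.38% and 52.1%, and in Hb 43.1%, 4.31% and 52.6%. For Tnfrsf4, Foxp3-positive barcodes held 16.7% to 26.8% of the UMIs in each of the 5 libraries, and Irf4-positive ones 44.5% in Ga and 45.9% in Gc, against 3.60% to 7.90% in the others. Foxp3-positive barcodes held 1.85% to 3.17% of the Cd27 UMIs and 1.95% to 4.20% of the Traf1 UMIs. They made up 1.52% to 2.43% of barcodes but held 1.65% to 3.05% of the UMIs of all genes. In Gc their share of Traf1 UMIs was 4.20% (3.77% to 4.67%), beside 2.98% of the UMIs of all genes and 2.07% of barcodes.

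**Figure D3:**
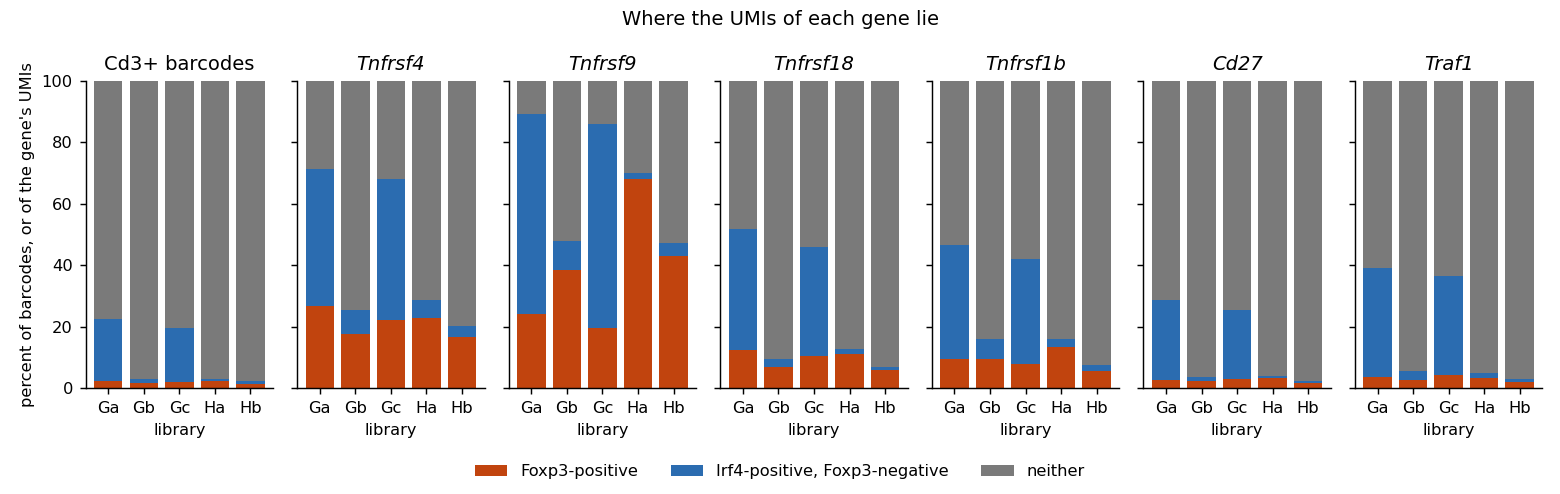
Stacked percentages of Cd3+ barcodes (left panel) and of the UMIs of each gene by class in each library. Irf4-positive barcodes hold 65.2% of Tnfrsf9 UMIs in Ga and 66.4% in Gc; in Ha, Foxp3-positive barcodes hold 68.2%.

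Within Foxp3-negative barcodes of Ga and Gc, 3 receptors climbed with the number of Irf4 UMIs. For 0, 1, 2 to 3 and 4 or more Irf4 UMIs, Tnfrsf9 was 9.24, 58.3, 159 and 208 CPM in Ga. In Gc it was 8.57, 33.9, 112 and 178 CPM. The intervals of neighbouring bins of Tnfrsf9 did not overlap in either library. Tnfrsf4 was 12.1, 21.8, 30.4 and 72.4 CPM in Ga and 12.4, 24.2, 32.1 and 77.5 CPM in Gc. The intervals of the middle bins overlapped, and the top bin stood apart. Tnfrsf18 was 53.3, 84.0, 100.3 and 151 CPM in Ga and 49.0, 62.9, 85.3 and 128 CPM in Gc. Tnfrsf1b had reached its plateau at 1 Irf4 UMI, with 27.1, 56.3, 69.3 and 53.3 CPM in Ga and 27.5, 61.5, 51.4 and 52.6 CPM in Gc. Traf1 stayed at 144 to 155 CPM in the middle bins and was 230 CPM in Ga and 216 CPM in Gc at 4 or more. Cd27 moved between 208 and 265 CPM. Depth moved along, since the median of UMIs per barcode was 8419, 8949, 9692 and 11563.5 across the bins of Ga. CPM is relative to that total, and the part of depth in sorting barcodes into bins was not tested. The other 3 libraries had too few Irf4-positive barcodes for these bins.

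**Figure D4:**
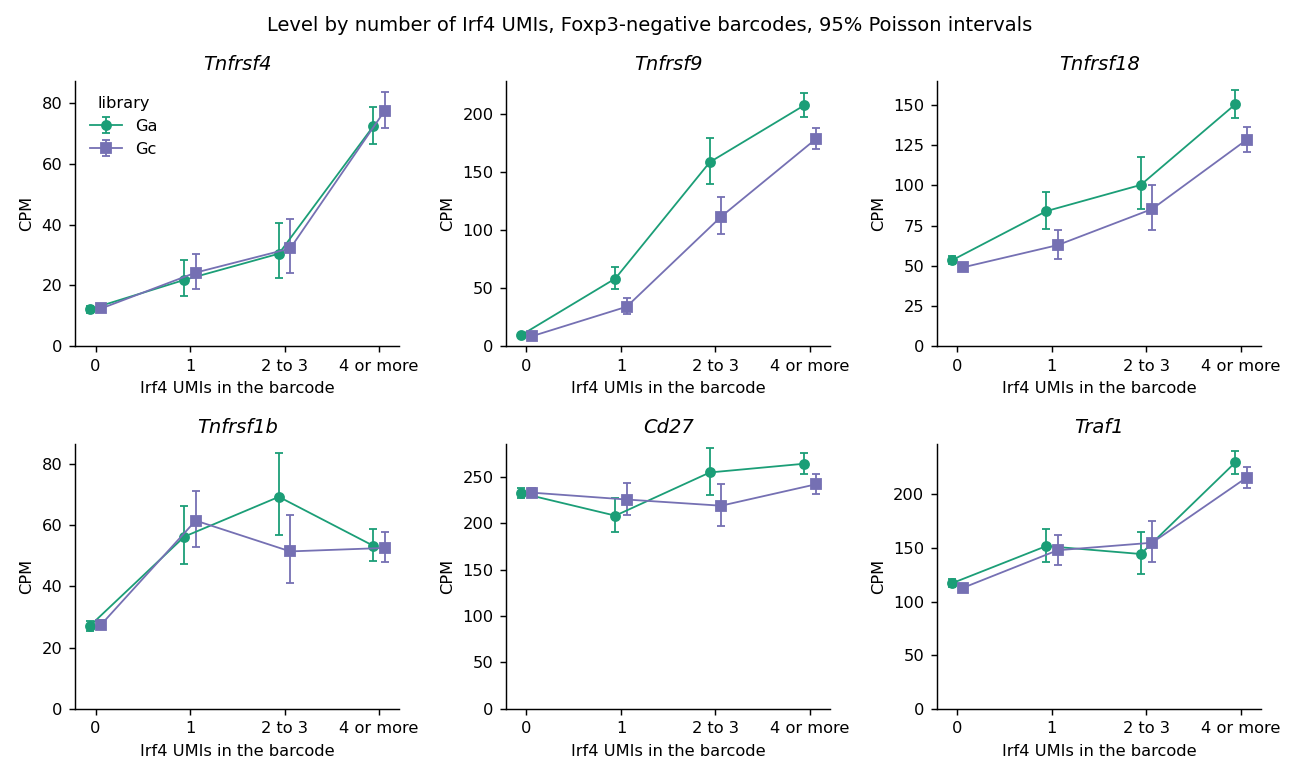
Level (CPM) by the number of Irf4 UMIs in Foxp3-negative barcodes of Ga and Gc, with 95% Poisson intervals. Tnfrsf9 runs from 9.24 to 208 CPM in Ga, Tnfrsf1b is flat from 1 Irf4 UMI on, and Cd27 stays between 208 and 265 CPM.

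Irf4 also marked part of the Foxp3-positive class, 65 of 466 barcodes. In Ga, Tnfrsf9 was 726 CPM in the 25 Foxp3-positive barcodes with Irf4 and 421 CPM in the 102 without. In Gc the order was the other way, with 272 CPM in 29 barcodes and 324 CPM in 104. Traf1 was 286 CPM with Irf4 and 123 CPM without in Gc, but 168 and 164 CPM in Ga. The order of the Tnfrsf9 values thus differed between the 2 libraries, and the Traf1 values of Ga were nearly level. These values rest on 25 and 29 barcodes with Irf4 and are given without intervals. Whether the differences exceed counting error was not tested.

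For some pairs of receptors, barcodes with either gene held the other more often, on thinned counts. For other pairs the shares were close. Among Foxp3-positive barcodes of Ga, Tnfrsf18 was found in 76.3% (59.8% to 88.6%) of the 38 barcodes with Tnfrsf9 and in 17.2% (9.98% to 26.8%) of the 87 without. In Gc the shares were 47.1% (29.8% to 64.9%) and 21.2% (13.6% to 30.6%). Among Irf4-positive barcodes, Tnfrsf18 was found in 42.3% (30.6% to 54.6%) of those with Tnfrsf4 and in 19.0% (16.6% to 21.7%) of those without in Ga. In Gc it was found in 36.0% (26.0% to 46.8%) and 13.8% (11.7% to 16.04%). Tnfrsf9 went with Tnfrsf4 less evenly in that class, at 23.9% and 23.7% in Ga and 27.0% and 17.7% in Gc. With and without Tnfrsf9, Tnfrsf18 was found there in 24.5% (19.2% to 30.4%) and 19.5% (16.7% to 22.4%) in Ga. In Gc the shares were 23.5% (17.9% to 30.0%) and 13.7% (11.6% to 16.2%). With and without Tnfrsf1b, Tnfrsf18 was found in 21.6% and 20.5% in Ga and 14.1% and 15.7% in Gc. Among Foxp3-positive barcodes the latter shares were 52.2% and 31.4% in Ga and 30.0% and 27.4% in Gc. Cd27 was found in 19.7% (11.2% to 30.9%) of the Irf4-positive barcodes of Ga with Tnfrsf4 and in 40.3% (37.1% to 43.5%) of those without, whereas in Gc the shares were 31.5% (22.0% to 42.2%) and 35.7% (32.7% to 38.7%). All 3 of Tnfrsf4, Tnfrsf9 and Tnfrsf18 were held by 12.8%, 1.92%, 6.77%, 3.26% and 1.67% of Foxp3-positive barcodes across Ga, Gb, Gc, Ha and Hb. Among Irf4-positive barcodes the shares were 0.787%, 2.70%, 0.904%, 0% and 0%, and among the remaining ones 0.0255% to 0.0698%. In Gb both of the upper shares were 1 barcode, and in Hb the Foxp3-positive one was. These shares describe cells that share a library.

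Within the class with neither gene, barcodes with Ikzf2, Gpr83 or Lrrc32, genes of regulatory T cells, had higher levels of Tnfrsf4, Tnfrsf1b, Tnfrsf9 and Traf1. Tnfrsf4 was 23.0 to 27.6 CPM in them over the 5 libraries, against 11.5 to 15.9 CPM in barcodes with Cd4 and none of Trdc, Klrd1, Cd8a or Cd8b1. Tnfrsf1b was 32.3 to 42.9 CPM in the same barcodes, against 11.97 to 22.2 CPM. The ranges of both genes did not overlap. Tnfrsf9 was 4.15 to 15.2 CPM, against 1.60 to 7.99 CPM, and in each library it was higher. Traf1 was 121 to 171 CPM, against 93.7 to 118 CPM. Cd27 was lower in each library, at 202 to 250 CPM against 238 to 271 CPM. A barcode could belong to both sets, and finding a gene depends on depth, whose part was not tested. The sets were also unlike, since the first could hold Trdc, Klrd1, Cd8a or Cd8b1 and could lack Cd4. The first rested chiefly on Ikzf2, found in 17.4% to 19.9% of barcodes of the class over the libraries. Gpr83 was found in 0.0983% to 0.369% and Lrrc32 in 0.252% to 0.492%. The part of barcodes with Trdc or Klrd1, whose Tnfrsf1b levels are given below, was not tested.

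Of the other genes of the pathway, most ligands measured were higher in Irf4-positive than in remaining barcodes. Of 13 ligand genes 11 were measured, and 7 were at least 2-fold higher and none lower, by the median over libraries. Of all genes 11.6% were as much higher and 3.86% lower. Among the 7, Tnfsf4 and Tnfsf14 had only 565 and 307 UMIs in all. Tnfsf11 (RANKL) had a median log2 ratio of 3.56, Tnfsf8 (CD30 ligand) 2.69 and Tnf 2.39. The ligand gene of OX40, Tnfsf4, had 1.73 but ran from -0.96 to 4.98. In Foxp3-positive over neither 5 ligands were higher and 2 lower, beside 11.8% and 3.46% of all genes. Tnfsf9, the ligand of CD137, was at 1.09 and Cd40lg at -1.29. Between the classes, Foxp3-positive over Irf4-positive, Tnfsf10 was higher (1.16) and Tnfsf8, Tnfsf11 and Fasl were lower, at -1.27, -1.92 and -2.66. Of all genes 7.41% were higher and 7.94% lower there. The median of the 11 ligands was -0.74 in that comparison, against -0.01 over all genes, whereas the median of the 6 costimulator genes was 1.05. Tnfsf18 and Cd70, the ligands of GITR and CD27, had 55 and 44 UMIs and were too low to count.

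Among 14 measured of 16 other receptors, 5 were higher in Foxp3-positive than in remaining barcodes, beside 11.8% of all genes. Tnfrsf8 (CD30) had a median log2 ratio of 5.94 on 134 UMIs in all, Cd40 3.95 and Tnfrsf11a (RANK) 3.32, and Tnfrsf21 and Ltbr also passed. In Irf4-positive barcodes 4 of 14 were higher, beside 11.6% of all genes: Tnfrsf8, Tnfrsf11a, Tnfrsf21 and Cd40, of which Cd40 is also a B cell gene. Neither comparison had a lower receptor. Between the classes 4 were higher (Tnfrsf8, Tnfrsf11a, Cd40 and Ltbr) in Foxp3-positive barcodes and Tnfrsf12a was lower, beside 7.41% and 7.94% of all genes. All of these receptors but Tnfrsf12a had fewer than 1000 UMIs. Genes with few UMIs passed the line more often. In Foxp3-positive over neither, 5.26% of genes with at least 1000 UMIs were higher, against 11.8% of all genes. The shares of all genes are thus lower than those of genes with so few UMIs.

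Of the 15 adaptors and regulators, 2 were at least 2-fold higher in Foxp3-positive and 2 in Irf4-positive than in remaining barcodes, near the share of all genes, which was 11.8% for Foxp3-positive and 11.6% for Irf4-positive barcodes, so these counts do not set the list apart. Tank (1.40) and Tnfaip3 (1.23), both regulators of NF-kB signaling, were higher in Foxp3-positive than in remaining barcodes. In Irf4-positive barcodes Traf4 (1.10) and Tank (1.06) were higher, and Traf5, an adaptor of OX40 and CD27, was lower at the line itself, at -1.005, with -1.56 in Ga and -1.35 in Gc but 0.88 in the highest library. None differed by 2-fold between Foxp3-positive and Irf4-positive barcodes. Of the 15 NF-kB factors, Rel (1.38) and Nfkbiz (1.22) were higher in Foxp3-positive barcodes, also near the 11.8% of all genes. In Irf4-positive barcodes 6 were higher, beside 11.6% of all genes: Nfkbid (2.17), Rel (1.76), Nfkb2 (1.60), Nfkb1 (1.56), Relb (1.25) and Nfkbia (1.12). Of the 5 survival genes, Bcl2a1b (2.16), Bcl2l1 (1.72) and Bcl2a1d (1.09) were higher in Foxp3-positive barcodes, beside 11.8% of all genes. In Irf4-positive barcodes these were 2.94, 2.19 and 2.96, and Bcl2 was 1.15, where 11.6% of all genes were at least 2-fold higher. The ratios of Bcl2l1 were 3.65 in Ga and 3.74 in Gc but -1.22 in the lowest library. Bcl2a1b and Bcl2a1d are near-identical copies whose reads may be divided between them. Nfkb1, Relb, Nfkbid, Bcl2l1 and Bcl2a1d were lower in Foxp3-positive than in Irf4-positive barcodes, where Tnfrsf4, Tnfrsf9 and Tnfrsf18 were higher.

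The genes most like each member were ranked by Pearson's r of log2(CPM + 1) over the 15 library-by-class values among 13119 genes, as a description, since the classes of a library share its preparation. For Tnfrsf9 these were Izumo1r (r = 0.97), Dennd5a (0.96) and Tnfrsf18 (0.94). For Tnfrsf4 they were Lrrc32 (0.95), Cep85l (0.94) and Izumo1r (0.94), and for Tnfrsf18 Dennd5a (0.96), Anapc1 (0.95) and Tnfrsf9 (0.94). Izumo1r encodes folate receptor 4 and Lrrc32 encodes GARP, both proteins of regulatory T cells. Tnfrsf1b was most like Icos (0.97), Samsn1 (0.94) and Odc1 (0.94), Icos being a costimulatory receptor of the CD28 family. Traf1 was most like Aebp2 (0.96), Fyn (0.94) and Nfkbia (0.94), and Cd27 like 4933411E06Rik (0.90), Tpmt (0.89) and Nxt2 (0.89), 3 genes of fewer than 1000 UMIs.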

How the data were processed

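The values the authors deposited were UMI counts, as 2 aggregated matrices, made with Cell Ranger 6.0.0 and build mm10 per the submitters' processing notes; the matrix headers name cellranger 7.1.0. The sources used here do not say whether aggregation equalised depth or whether intronic or opposite-strand reads counted. Tnfrsf9, Tnfrsf18 and Cd27 overlap genes on the opposite strand (Camta1, Gm16008 and Vamp1), so reads of those pairs may not be told apart.

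Barcodes with at least 500 UMIs and at most 10% mitochondrial UMIs were kept, 24890 of 25623, and 22874 were Cd3+. No doublet caller was run. UMIs were summed per library and class and given as CPM with exact Poisson intervals. Log2 ratios added 0.5 UMI to each sum and have exact binomial intervals, and shares have Clopper-Pearson intervals. A gene was called when its median log2 ratio over the 5 libraries reached 1 in size. Shared cultures or animals are not stated, and each label has 1 sample. The scripts were tested on simulated data. The alternatives were another depth, filter, UMI minimum, added count and class definition, and leaving out each library. Named genes were the 6 members, genes of 5 pathway lists past 2-fold, and the 3 most alike genes per member. The members, lists and classes were chosen with earlier results of these data known, and these alternatives were chosen after seeing the data: Ga and Gc only, Ha and Hb only, at least 1000 UMIs per gene, without Foxp3-negative barcodes holding Ikzf2, Gpr83 or Lrrc32, Foxp3-positive without Irf4, and without barcodes carrying markers of other cells. Python 3.11.15, numpy 2.4.6, scipy 1.17.1 and pandas 2.3.3 were used, with RefSeq promoters (GRCm38.p6) and GENCODE vM21 positions.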

Additional observations from a re-analysis of the deposited data

Results flagged for a closer look

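Signal of all 6 genes lay outside the Cd3+ barcodes the comparisons use. In the 2016 Cd3-negative barcodes that passed the filter, at a median of 1022.5 UMIs, Tnfrsf4 was 12.3 CPM, Tnfrsf9 37.1 CPM, Tnfrsf18 30.4 CPM, Tnfrsf1b 74.2 CPM, Cd27 69.3 CPM and Traf1 124 CPM. Each was above the level that a count of 0 allows. In the 39 myeloid-like barcodes among them Tnfrsf1b was 259 CPM, and in the 28 B-like barcodes Traf1 was 171 CPM.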

How the results depend on the processing

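The count of genes at least 2-fold higher in Foxp3-positive than in remaining barcodes was 4 under all alternatives run, and leaving out each library in turn gave 4 to 4. For Irf4-positive over remaining barcodes it was 3 to 4, also over the libraries left out. Tnfrsf18 was the 1 added, under at least 2 UMIs for a positive class, thinned to 2000 UMIs (1.52), without the 6% of barcodes with the most UMIs, without barcodes holding Trdc, Klrd1, Cd8a or Cd8b1, without barcodes carrying markers of other cells, with Ga and Gc only, without Ha and without Hb. For Foxp3-positive over Irf4-positive it was 3 to 4, with 3 to 3 over libraries left out. When thinned to 2000 UMIs these 3 were Tnfrsf4 (2.58), Tnfrsf9 and Tnfrsf1b (1.03), while Tnfrsf18 was no longer called (0.85). The count spanning 2-fold over all Cd3+ barcodes was 2, with 2 to 2 over libraries left out, 2 or 3 under the other alternatives but 1, and 4 without barcodes holding Trdc, Klrd1, Cd8a or Cd8b1. The count inside the class with neither gene was 1, with 1 to 1 over libraries left out, but 2 when thinned to 2000 UMIs. The cause was not tested. Shares of all Cd3+ barcodes with a UMI depend on depth by construction. Thinned to 1000, 2000 and 4000 UMIs, they were 1.60%, 2.94% and 5.04% for Tnfrsf4, 1.93%, 3.19% and 4.94% for Tnfrsf9, and 5.45%, 10.3% and 18.6% for Tnfrsf18. They were 2.43%, 4.48% and 7.99% for Tnfrsf1b, 22.3%, 38.5% and 60.2% for Cd27, and 10.8%, 19.8% and 33.4% for Traf1. Of the single-gene medians, 13 of Foxp3-positive over remaining, 22 of Irf4-positive over remaining and 14 of Foxp3-positive over Irf4-positive moved beyond the spread used, and 95, 86 and 82 did not; no called value changed sign. No paired analysis was possible because each label has 1 sample and no replicate number to pair by. Classes were compared inside each library, with no test over libraries, since libraries without a label are not replicates of a group. The small Irf4-positive classes of Gb, Ha and Hb limit precision.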

Other observations

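Barcodes of the class with neither gene that held Trdc or Klrd1, genes of gamma-delta or innate-like T cells, numbered 5590. Over the 5 libraries they had 21.2 to 34.1 CPM of Tnfrsf1b, against 11.97 to 22.2 CPM in barcodes with Cd4 and none of these genes or of Cd8a and Cd8b1. Tnfrsf4 was 6.38 to 12.8 CPM in the same barcodes, against 11.5 to 15.9 CPM. In the 1147 barcodes with Cd8a or Cd8b1, Tnfrsf4 was 1.34 to 9.17 CPM. Single barcodes with many UMIs of a gene were found: 84 UMIs of Tnfrsf4 in an Irf4-positive barcode of Gc, and 83 UMIs of Tnfrsf9 in a Foxp3-positive barcode of Ga.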
